A study of Homo sapiens with 15 samples.

Results

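USP7-knockout cells of the human colorectal cancer line DLD1 were compared before and 1 day after a GFP-tagged USP7 was switched on, in 6 of the 15 libraries of the series. The 3 libraries without doxycycline (KO) and the 3 taken after 1 day in doxycycline at 1 µg/ml (day 1) both come from USP7-knockout cells, and the column names of the deposited table give the GFP-USP7 name to both. Per the labels, the rescue line was made by transfecting knockout cells with a doxycycline-responsive GFP-USP7 plasmid and a Tet3G activator plasmid driven by the EF1α promoter, followed by G418 selection. Whether it is 1 clone is not stated there. Parental DLD1 cells (WT, 3 libraries, untreated) serve below only as a reference level, given for some genes and not for others. Doxycycline and USP7 arrived together, and no doxycycline-treated cells without the transgene are analysed here, so the effects of the drug and of USP7 cannot be told apart. The replicates are called biological triplicates, with no word on separate cultures, and a p-value then covers just the spread among these samples, perhaps a technical one.

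USP7 is a deubiquitinase, an enzyme that removes ubiquitin from other proteins and so alters their stability or activity. Among its partners are the Polycomb repressive complexes of type 1 (PRC1), whose RING1 and RNF2 subunits place ubiquitin on histone H2A. Variant forms of the complex (ncPRC1) are told apart by their PCGF subunit and by partners such as KDM2B, BCOR and AUTS2, while canonical forms (cPRC1) carry a CBX protein that reads H3K27me3. The comparison asks which transcripts move first once the enzyme returns.

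Poly(A) RNA was read as normalized counts per gene, and totals of the 6 libraries ran from 15159389 to 15347043. All 6 carry the same project code in the column names. Of 12 colorectal epithelial markers 11 were in the table and above 0 in each of the 6 libraries, and their summed level was 161696 to 168854 in KO and 136909, 158884 and 159606 at day 1. Of 26 leukocyte, fibroblast and endothelial markers 10 were in the table, with summed levels of 38.3 to 130.2 per list and library. The day 3 and day 9 libraries, which carry another code, enter the fit of all 15 libraries as further samples of the residual spread. They also count in the filter that sets the tested genes and in the gene means of a GC correction described below. They hold an oddity: of 44 genes listed at 0 in all 6 KO and day 1 libraries and with a WT mean of at least 50, 37 were above 0 in each of the 6 day 3 and day 9 libraries, at a median of 21.3% of WT and with almost no spread (variance over mean 0.062, against 0.927 in WT for the same genes). No day 3 or day 9 level is compared with KO or day 1 in the results below for that reason. When only the 9 libraries of the shared code were fitted, 1257 (76.2%) of the 1650 calls described below passed again with the same sign. All 526 genes of the most demanding call set described below passed too. That set already required a call in the 6 libraries alone, so little else was possible.

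USP7 rose. USP7 (ENSG00000187555) read 1403.1, 1369.6 and 1395.4 normalized counts in the 3 KO libraries and 8635.0, 7888.4 and 8193.4 at day 1. The groups did not overlap, and the log2 change was 2.57 (SE 0.05, adjusted p = 4.74e-19). Every log2 change below is a difference of log2(value + 1), which understates changes of low genes, and every adjusted p comes from limma, corrected over the 15134 tested genes by Benjamini and Hochberg's method. USP7 stood at 3391.8 ± 25.4 (SD, n = 3) in WT, below its day 1 level of 8238.9 ± 375.3. The libraries labelled knockout were not at 0 for it but at 1389.3 ± 17.6 (SD, n = 3), and counts per gene do not separate reads of the transgene from those of the cells' own USP7 gene.

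Within a day 1650 genes (10.9% of those tested) passed the threshold of 0.05, 747 higher (4.94%) and 903 lower (5.97%). That count moved with the libraries fitted: 958 to 1058 without 1 KO library, 1096 without day 1 replicate 3, 613 in the 6 libraries alone and 3203 with library weights. Most of the changes were small. In bulk RNA a lower level per cell and fewer cells with the transcript cannot be told apart. The median size was 0.30 log2 units among the genes that rose and 0.32 among those that fell, and 72 rose and 49 fell by at least 1 log2 unit. A set of 526 genes (3.48%), 222 higher (1.47%) and 304 lower (2.01%), passed with the same sign in the fit of all libraries, in a fit of the 6 libraries alone and in each of 6 fits that left out 1 KO or day 1 library. Of these 526, 61 changed by at least 1 log2 unit. Genes described below as passing in every fit belong to this set. The KO and day 1 libraries did not overlap in 4059 genes (26.8%), 1943 higher (12.8%) and 2116 lower. The plot of change against level shows where they lie.

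**Figure D1:**
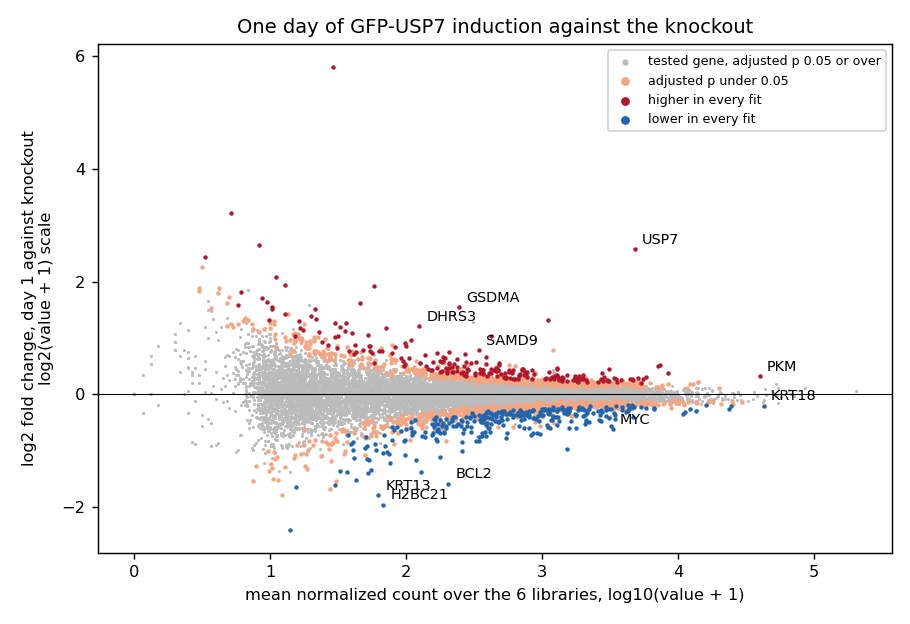
Log2 fold change of day 1 against knockout, on the log2(value + 1) scale, against the mean normalized count of the 6 libraries (log10 axis), 1 point per tested gene. Genes called in every fit are dark red (222 higher) or dark blue (304 lower), other genes past an adjusted p of 0.05 are orange, and USP7 stands apart at 2.57.

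Day 1 replicate 1 stood apart from its 2 partners, and the departure followed base composition. Set against counting noise, the variance of a pair's difference was 14.06-fold for replicates 1 and 2 and 10.04-fold for replicates 1 and 3. It was 1.53-fold for replicates 2 and 3 and 1.60-fold to 2.31-fold among the KO libraries. Of 11522 genes with a mean of at least 50, 689 lay at least 0.5 log2 units below the mean of the other 2 day 1 libraries and 22 lay as far above it. The 689 had a median GC content of 63.4% in their longest transcript, against 47.9% over all 11522, and the 22 had 42.5%. Tested genes were split into 5 equal groups from low to high GC, of which 2198 to 2490 genes each had a mean of at least 50. Across these groups the median departure of replicate 1 ran 0.18, 0.13, 0.04, -0.12 and -0.37. Replicate 2 ran the other way, from -0.13 to 0.24, and so did replicate 3, from -0.05 to 0.14. Replicate 1 is part of the mean that each of them is set against, so an opposite course is partly built in. The KO libraries stayed between -0.07 and 0.08. Replicate 1 also had 5.079% of its counts in mitochondrial genes against 4.651 and 4.663%. What produced the departure was not tested.

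**Figure D2:**
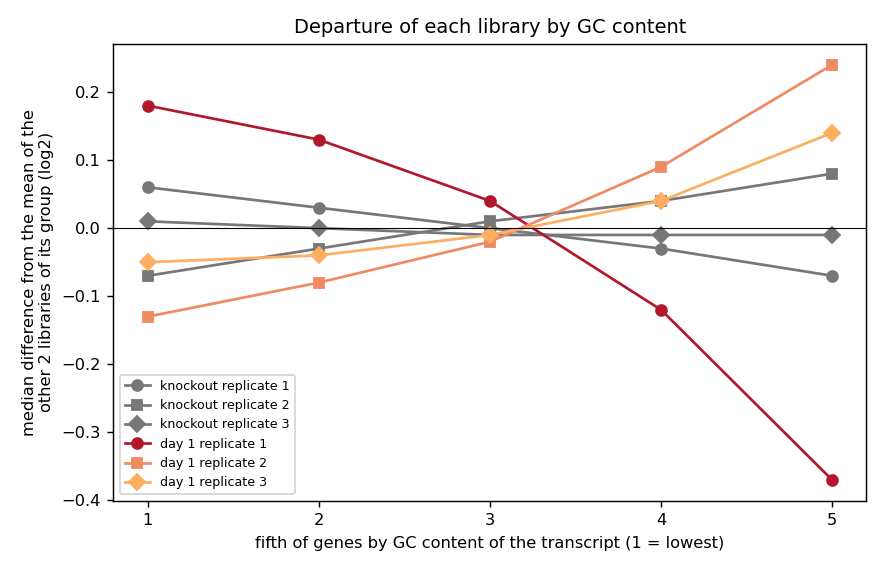
Median log2 difference of each library from the mean of the other 2 libraries of its group (vertical axis) in 5 groups of tested genes ordered by GC content of the longest transcript (horizontal axis), equal in size before genes with a mean under 50 were left out. Day 1 replicate 1 falls from 0.18 in the lowest GC group to -0.37 in the highest. Day 1 replicates 2 and 3 rise from -0.13 to 0.24 and from -0.05 to 0.14, each set against a mean that includes replicate 1.

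Most calls were made without that library too, and 259 were not. Without it 2418 of the 15134 genes passed, including 1391 (84.3%) of the 1650. Those 259 kept their sign, as did all 1650 in each fit with 1 library left out. Such fits share their other libraries with the main fit, so a change of sign was unlikely. Leaving out 1 KO library lost 625 to 723 of the 1650 calls. Replicate 1 was the day 1 library farthest from KO in 362 of the 747 genes that rose and the nearest in 250, and its median log2 difference from KO in those genes was 0.33 against 0.30 in both others. The genes that passed only without it were sorted by GC: 488 that were higher had a median GC content of 58.0%, and 538 that were lower 42.0%. The median log2 change in the group of highest GC was -0.05 with replicate 1 and 0.07 without it.

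When each library's dependence on GC content was smoothed and removed, an alternative chosen after the data were seen, 3108 of 15092 genes passed (20.6%), 1502 higher (9.95%) and 1606 lower (10.6%). The number of genes in which replicate 1 departed by 0.5 log2 units or more fell from 710 to 96, of 11508. With the correction the count was 3011 without replicate 1 and 3068 in the 6 libraries alone, where the uncorrected counts were 2418 and 613. The corrected count thus stayed near 3108 in both of these library sets. Corrected fits without a KO library or another day 1 library were not run, so dependence on those libraries was not tested. Of the 1650 genes, 1631 (98.8%) passed again with the same sign, as did all 526 of the set that passed in every fit. The correction also removes any true change that follows GC content. Adjusted p-values below are without it unless stated.

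Examples show both sides. ZFHX2, a zinc finger homeobox gene, read 69.8, 76.6 and 81.6 in KO and 77.6, 121.2 and 131.6 at day 1. Its first day 1 library sat inside the KO range, and the adjusted p moved from 0.052 to 0.00062 without that library and to 0.00478 with the GC correction. DPP4, a brush border peptidase, read 68.8, 56.7 and 70.7 in KO and 67.5, 31.0 and 43.9 at day 1, and moved from 0.132 to 0.00207 without the library. KIF26A, a kinesin-like gene, went the other way: 179.4, 204.0 and 209.0 in KO against 94.7, 154.2 and 137.6, with an adjusted p of 0.0259 that rose to 0.0626 without replicate 1 and was 0.000721 after the correction. The others lost without it by the naming rule were TTC30A, IGIP, DDX60 and ZNF596 (higher) and TMEM52, TLE2 and GPA33 (lower). The others gained were STRA6, MGAT3 and NLGN3 (higher) and FAM184A, NPL and FGF2 (lower).

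The largest increases, taken only from genes whose KO and day 1 libraries do not overlap, were a mixed group. GSDMA, which encodes a pore-forming gasdermin, read 125.6, 124.4 and 125.4 in KO and 381.8, 350.5 and 368.8 at day 1 (log2 change 1.54, SE 0.08, adjusted p = 8.13e-11). RUFY3, an adaptor that links lysosomes to dynein, read 652.7, 627.1 and 593.2 and then 1731.6, 1391.8 and 1583.1 (1.32, adjusted p = 4.83e-09). Both sit well clear of their KO range in every library, and both ended above their WT means of 203.7 and 602.1. DHRS3, a retinaldehyde reductase, rose least in replicate 1, with 53.8, 79.6 and 87.6 in KO and 115.8, 208.3 and 198.4 at day 1 (1.21, adjusted p = 0.00168, and 1.48 without replicate 1). The antisense RNA INTS6L-AS1 read 20.9, 24.9 and 23.9 and then 80.6, 114.2 and 79.8 (1.92, adjusted p = 2.61e-06). How strand was handled in counting is not known from the sources at hand, so its reads cannot be told apart from those of INTS6L, whose mean went from 6.6 to 18.4.

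Several increases were of genes far below their WT level in KO. KLHL4, a Kelch-like gene, read 45.8, 39.8 and 41.8 in KO and 105.8, 92.1 and 94.7 at day 1 (1.18, adjusted p = 2.37e-07), beside a WT mean of 721.7. TNC, the matrix glycoprotein tenascin C, read 38.9, 31.9 and 28.9 and then 79.6, 62.1 and 66.8 (1.05, adjusted p = 2.74e-06), beside 656.9 in WT. CADPS, which primes dense-core vesicles for release, read 293.0, 273.7 and 259.8 and then 623.5, 552.7 and 524.4 (1.04, adjusted p = 1.31e-08), beside 972.9. Separation of the KO and day 1 libraries was a condition for naming these genes. In all 3 every day 1 library lay below the WT mean. NEB rose by 0.86, from a KO mean of 70.7 to 127.9, beside 233.6 in WT. PTPRM, MYH15 and SULT1C3 rose by 0.96, 0.91 and 0.85, from KO means of 73.3, 67.0 and 37.8. Their day 1 means of 142.3, 126.9 and 68.8 lay above their WT means of 113.3, 118.3 and 54.5. TSPOAP1, named after its values were seen because it was listed at 0 in all 3 KO libraries, read 43.3, 69.1 and 55.8 at day 1 (WT mean 336.6). Another such gene, ZNF780B, was listed at 0 in KO and read 9.1, 7.0 and 9.0 (WT mean 308.4).

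**Figure D3:**
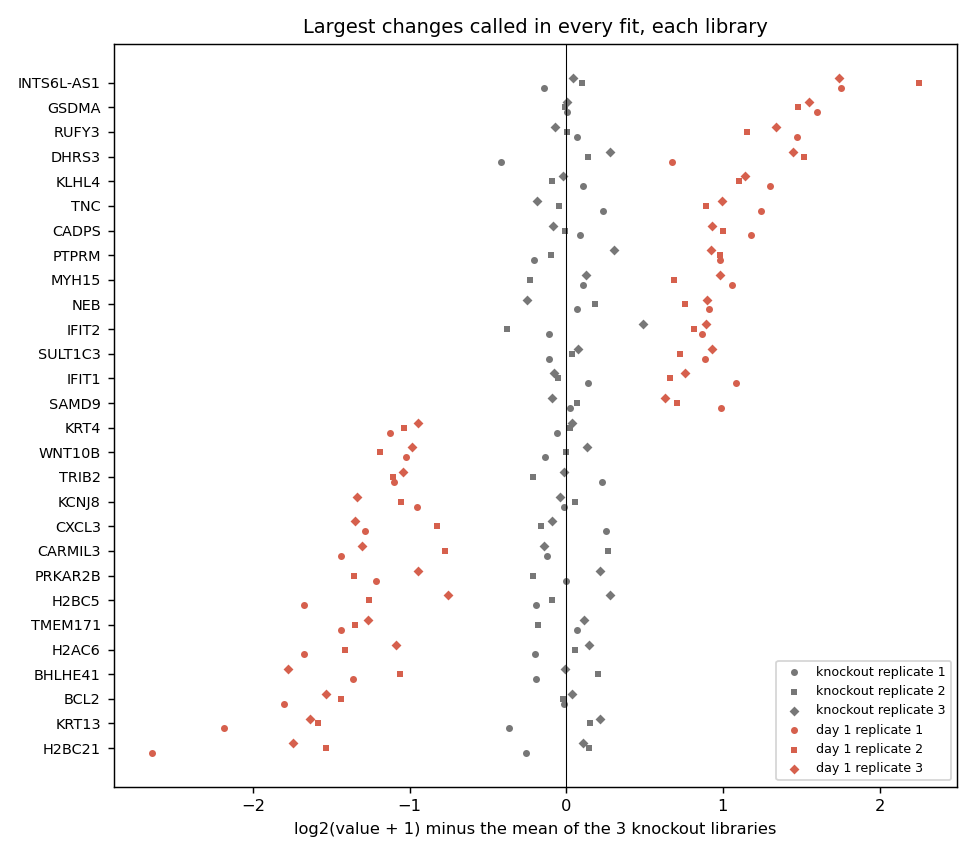
Difference of each library from the mean of the 3 knockout libraries, on the log2(value + 1) scale, for the 14 largest increases and 14 largest decreases that passed in every fit, limited to genes with a mean of 50 or more whose KO and day 1 libraries do not overlap. Grey marks are KO and red marks day 1 libraries, with the replicate given by shape; replicate 1 (circles) is the extreme day 1 library for some genes, such as H2BC21 and TNC, and the nearest to KO for DHRS3.

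The largest decreases, like the increases, were of mixed kinds, and the histone and keratin genes among them are given further on. BCL2, the inhibitor of mitochondrial apoptosis, read 301.9, 300.6 and 312.5 in KO and 86.6, 112.1 and 104.7 at day 1 (-1.59, SE 0.13, adjusted p = 1.74e-07), and its WT mean was 28.2. Every day 1 library lay at under 40% of each KO library. TMEM171, a transmembrane protein, read 81.7, 68.7 and 84.6 and then 28.2, 30.0 and 31.9 (-1.35, adjusted p = 2.95e-05). PRKAR2B, a regulatory subunit of protein kinase A, read 160.4, 138.3 and 187.1 and then 68.5, 62.1 and 82.7 (-1.18, adjusted p = 1.42e-05). KCNJ8, a subunit of ATP-sensitive potassium channels, read 240.2, 252.8 and 235.9 and then 124.9, 116.2 and 95.7 (-1.12, adjusted p = 4.34e-06). Separation of the KO and day 1 libraries was a condition for naming these genes, so it is no result of its own. The Wnt ligand WNT10B (-1.07), the pseudokinase TRIB2 (-1.08), the chemokine CXCL3 (-1.15) and the actin regulator CARMIL3 (-1.17) fell too.

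Among the genes that passed in every fit, those of the highest level moved by little. PKM, the glycolytic enzyme pyruvate kinase, read 35199.1, 36159.1 and 35402.8 in KO and 41895.5, 45962.8 and 45056.1 at day 1 (0.32, adjusted p = 5.81e-06). CEMIP, a hyaluronan-degrading protein, rose by 0.50, the membrane protease ADAM9 by 0.51, the membrane-repair protein MYOF by 0.38 and POLR2A, the largest subunit of RNA polymerase II, by 0.30. KRT18, an epithelial keratin, read 45067.6, 47135.5 and 45336.6 and then 36982.7, 40603.7 and 41255.0 (-0.21, adjusted p = 0.0037). PERP, a desmosomal membrane protein (-0.21), ferritin heavy chain FTH1 (-0.27) and galectin LGALS3 (-0.30) also fell.

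Transcripts of the PRC1 core did not pass. None of 8 catalytic and PCGF genes was called by limma, none was under an unadjusted p of 0.05 either (24.5% of all genes were), and their median log2 change was -0.01, the same as over all genes tested. RNF2 read 410.6, 365.3 and 409.1 in KO and 400.9, 375.5 and 380.8 at day 1 (-0.03, adjusted p = 0.843), with overlapping groups. RING1 read 587.9, 570.3 and 611.1 and then 545.0, 620.8 and 614.1 (0.01, adjusted p = 0.971). PCGF5 alone of the 8 passed with the GC correction (-0.13, adjusted p = 0.276 without it and 0.00349 with it). With that correction 20.6% of all genes passed.

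Of 22 ncPRC1 partners 4 fell and 1 rose, and 2 passed in every fit, beside 10.9% called and 3.48% in every fit over all genes. AUTS2, the partner that gives PCGF3 and PCGF5 complexes an activating role, read 221.2, 248.8 and 232.9 in KO and 120.9, 146.2 and 166.5 at day 1 (-0.70, adjusted p = 0.00165, every fit), beside a WT mean of 31.2. WDR5, a WD-repeat protein shared with histone H3K4 methyltransferases, read 2039.9, 2047.4 and 1981.6 and then 1727.6, 1710.3 and 1750.5 (-0.23, adjusted p = 0.00135, every fit). Neither gene's groups overlapped. BCORL1, a corepressor (-0.36, adjusted p = 0.0117), and KDM2B, which brings PCGF1 complexes to CpG islands (-0.26, adjusted p = 0.0281), passed but not in every fit, and KDM2B was at 0.0576 without day 1 replicate 1. DCAF7, a WD-repeat adaptor, rose by 0.14 (adjusted p = 0.0339). None of 11 cPRC1 partners passed in limma and 1 was under an unadjusted p of 0.05, CBX2 (-0.22, adjusted p = 0.0616, and 0.00127 with the GC correction). Of 14 tested PRC2 genes only the elongin-binding cofactor EPOP passed, from 479.3, 492.7 and 446.9 to 353.6, 345.5 and 354.9 (-0.43, adjusted p = 0.000492). Its adjusted p was 0.0494 with the GC correction.

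Of 45 tested genes for USP7's partners and substrates 3 rose and 2 fell, a share near that of all genes, and none passed in every fit. TRIP12, a ubiquitin ligase, rose by 0.23, and MCM7, a subunit of the replicative helicase, fell by 0.18. Of 43 tested members of the USP family other than USP7 5 rose and 3 fell, 8 calls where the share over all genes was 10.9%. With the GC correction 6 rose and 5 fell, beside 9.95% higher and 10.6% lower over all genes. USP36, a nucleolar deubiquitinase, alone passed in every fit: 1212.8, 1293.9 and 1247.1 in KO and 939.9, 1052.4 and 990.9 at day 1 (-0.33, adjusted p = 0.000364). Of 11 tested H2A deubiquitinases USP22 passed, rising by 0.13 (adjusted p = 0.0402).

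The ribosome biogenesis list held the highest share of calls of the lists with at least 10 tested members. Of 50 tested members 29 fell, 9 of them in every fit, and none rose. The shares over all genes were 5.97% lower and 2.01% lower in every fit. The list's median log2 change was -0.20 against -0.01 over all genes. Without day 1 replicate 1, 39 fell, beside 1306 of all 15134 genes, and with the GC correction 44, beside 10.6% of all genes. RRP1B, a nucleolar processing factor, read 3040.4, 3143.2 and 2936.0 in KO and 2487.1, 2344.1 and 2477.3 at day 1 (-0.32, adjusted p = 8.58e-05). FBL, the methyltransferase of box C/D small nucleolar ribonucleoproteins, read 3883.4, 3777.2 and 3704.4 and then 3245.7, 3290.4 and 3195.0 (-0.22, adjusted p = 0.00237). Its partner NOP56 read 5887.4, 5794.8 and 5603.4 and then 5145.5, 4849.4 and 4789.0 (-0.23, adjusted p = 0.00167). In all 3 the KO and day 1 libraries stayed apart, by a small difference in level. RNA polymerase I subunits POLR1A and POLR1B fell by 0.17 and 0.26, and nucleolin (NCL) by 0.18.

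MYC and a polyamine gene fell as well. MYC, a transcription factor that drives ribosome synthesis, read 3934.3, 4053.0 and 4095.5 in KO and 2273.6, 2861.8 and 2680.6 at day 1 (-0.63, adjusted p = 8.64e-07), with the lowest value in replicate 1 and -0.54 without it. SRM, the spermidine synthase, read 1904.3, 2034.4 and 1771.6 and then 1237.0, 1454.9 and 1390.7 (-0.48, adjusted p = 3.74e-05). It was 1 of 5 of 25 genes of nucleotide and polyamine synthesis that fell, a count of 16 without replicate 1 and 13 with the GC correction. The matching shares over all genes were 5.97%, 1306 of 15134 without replicate 1 and 10.6% with the correction. Of 74 cytosolic ribosomal protein genes 20 fell and none rose (median -0.12), but 1 of the 20 passed in every fit. The shares over all genes were 5.97% lower and 2.01% lower in every fit. The lists for the proteasome (31 tested), mitosis (41) and mitochondrial DNA (13) held no call in limma. Under an unadjusted p of 0.05 were 0, 4 and 2 of their genes, beside 24.5% of all genes. With the GC correction 3 mitosis genes were higher and 4 lower, beside 9.95% higher and 10.6% lower over all genes.

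The hexamer CACGTG, the E-box bound by MYC and MAX as well as by other factors, was looked for in the 250 bases before each start site in RefSeq's GRCh38.p14 promoters. It occurs in 4 of 43 ribosome biogenesis promoters found there (9.30%) and in 952 of 10789 promoters of tested genes (8.82%). The palindrome reads the same on both strands. Of the 25 promoters whose gene fell it occurs in 2. In the nucleotide and polyamine list it occurs in 4 of 22 promoters (18.2%), 1 of them among the 4 whose gene fell.

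Some interferon-stimulated genes rose. Of 42 tested members 12 rose, 9 in every fit, 1 fell and 29 did not pass (median log2 change 0.17 against -0.01 over all genes). The shares over all genes were 4.94% higher, 1.47% higher in every fit and 5.97% lower. Without day 1 replicate 1, 16 rose, beside 1112 of all 15134 genes, and with the GC correction 20, beside 9.95% of all genes. The promoters shown are of 4 members that passed in every fit, picked for holding a match to the interferon-stimulated response element. It was searched as GAAANNGAAA on both strands. Each line is 80 bases upstream of the start site, read in the direction of the gene, from RefSeq's GRCh38.p14 promoters, and the capitals mark matches, which read TTTCNNTTTC when on the other strand. The windows are chr7:93118071-93118150 (minus strand) for SAMD9, chr10:89392485-89392564 (plus) for IFIT1, chr10:89327840-89327919 (plus) for IFIT3 and chr15:88638912-88638991 (plus) for ISG20.
SAMD9: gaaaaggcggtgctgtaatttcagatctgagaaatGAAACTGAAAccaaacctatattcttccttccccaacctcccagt
IFIT1: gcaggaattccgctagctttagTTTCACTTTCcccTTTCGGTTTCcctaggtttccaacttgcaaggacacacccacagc
IFIT3: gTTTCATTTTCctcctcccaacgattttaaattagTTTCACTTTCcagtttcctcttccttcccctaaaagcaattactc
ISG20: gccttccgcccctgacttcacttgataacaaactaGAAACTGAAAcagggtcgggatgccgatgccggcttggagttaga

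IFIT1 and IFIT3 hold the motif at 2 positions each and SAMD9 and ISG20 at 1. A match was a condition for showing a promoter, so it is no result of its own. The motif occurs in the 250 bases of 18 of 33 promoters of the list (54.5%) and in 243 of 10789 promoters of tested genes (2.25%). Promoters were found for 9 of the 12 members that rose, not the same 9 as those of every fit, and 6 of them held it, as did 12 of 24 other members, so its presence in this window did not separate them here. The letters say nothing about binding.

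SAMD9, an antiviral factor, read 257.1, 264.8 and 236.9 in KO and 501.7, 413.5 and 391.8 at day 1 (0.78, adjusted p = 3.26e-06). Its neighbour SAMD9L read 44.8, 40.8 and 37.8 and then 68.5, 63.1 and 74.8 (0.73, adjusted p = 0.00372). Both rose in every library, from KO means on opposite sides of WT, which was 480.8 for SAMD9 and 12.3 for SAMD9L. IFIT1, which binds foreign capped RNA, read 63.8, 55.7 and 54.7 and then 123.9, 92.1 and 98.7 (0.83, adjusted p = 0.00032). IFIT3 read 29.9, 31.9 and 28.9 and then 50.4, 46.1 and 53.8 (0.71, adjusted p = 0.00303), and IFIT2 67.5, 65.1 and 68.8 at day 1 after 33.9, 27.9 and 51.8 (0.86, adjusted p = 0.00501). The IFIT genes lie in 1 cluster and share sequence, so counting could split reads among them. ISG20, an RNA exonuclease, read 48.8, 43.8 and 46.8 and then 65.5, 71.1 and 68.8 (0.55, adjusted p = 0.00671). MX2 (1.19), the guanylate-binding protein GBP3 (0.56) and OAS1 (0.27) complete the 9.

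Other members did not follow. IRF9, a DNA-binding factor of the interferon response, stood at a log2 change of -0.08 (adjusted p = 0.826) and IRF7 at -0.04 (0.934). ISG15, a ubiquitin-like modifier, read 359.7, 371.3 and 356.3 in KO and 319.3, 501.7 and 456.6 at day 1 (0.21, adjusted p = 0.483). Its replicate 1 lay below KO and the other 2 above, and the adjusted p was 0.0491 without replicate 1 and 0.00449 with the GC correction. TAP1, the peptide transporter of antigen presentation, fell by 0.25 (adjusted p = 0.008), and DDX60 lost its call without replicate 1 (0.0583). Of 18 antigen presentation genes 1 rose and 1 fell, near the 10.9% called over all genes.

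**Figure D4:**
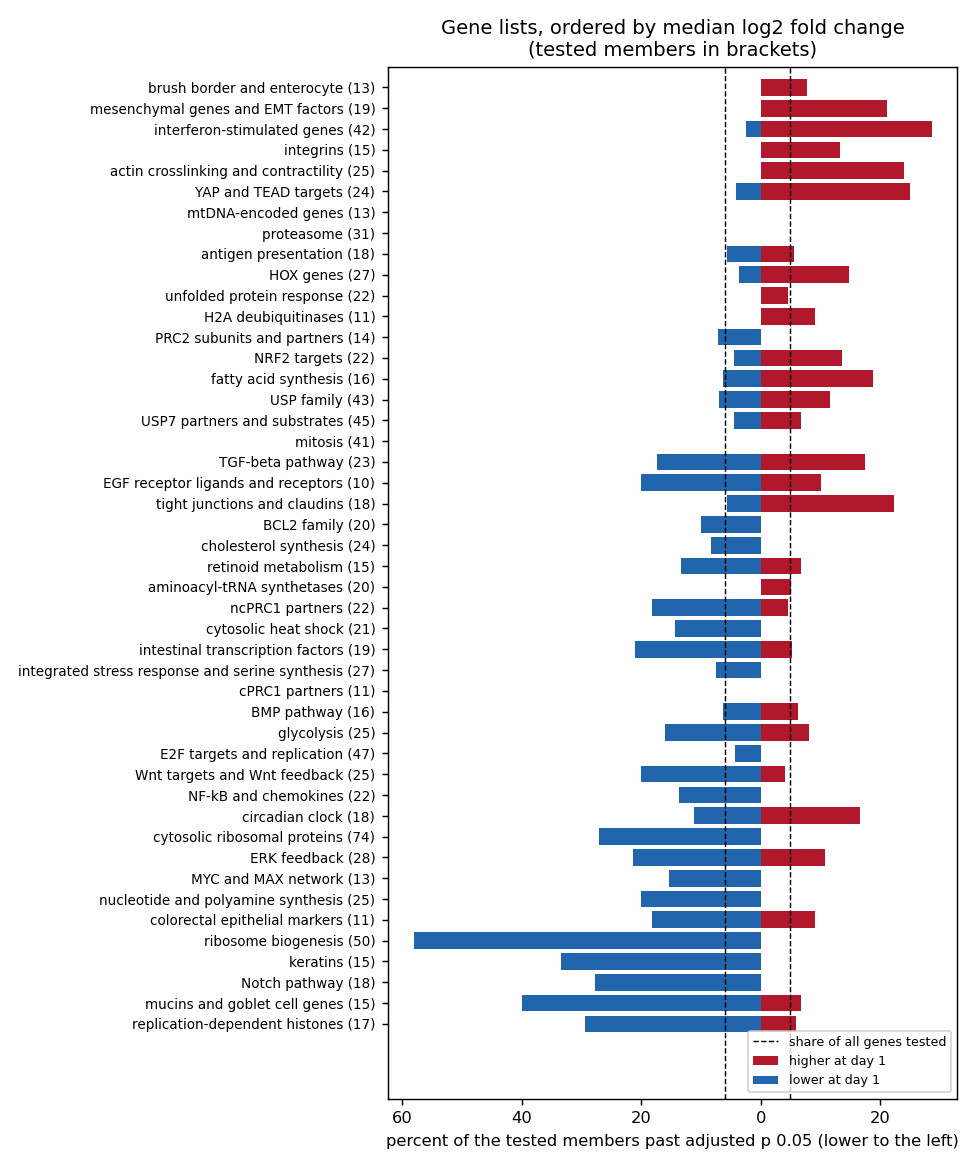
Percent of the tested members of each gene list that passed an adjusted p of 0.05, higher to the right in red and lower to the left in blue, for lists with at least 10 tested members (number in brackets), ordered by median log2 fold change. Dashed lines mark the shares over all genes tested, 4.94% higher and 5.97% lower, and ribosome biogenesis reaches farthest to the left with 29 of 50.

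Several histone genes fell. Of 17 tested genes on the replication-dependent histone list 5 fell, 4 of them in every fit, and 1 rose. The shares over all genes were 5.97% lower, 2.01% lower in every fit and 4.94% higher. The list's median log2 change was -0.66. That median was -0.48 without day 1 replicate 1, and -0.96, -0.49 and -0.43 in the 3 day 1 libraries taken singly. H2BC21 read 88.7, 117.4 and 114.5 in KO and 16.1, 36.0 and 30.9 at day 1 (-1.97, SE 0.24, adjusted p = 1.79e-05). H2AC6 read 161.4, 193.1 and 205.0 and then 57.4, 69.1 and 86.7 (-1.39, adjusted p = 2.37e-06), and H1-2 327.9, 398.1 and 376.2 and then 187.4, 251.3 and 253.2 (-0.68, adjusted p = 0.000952). In all 3 genes replicate 1 was lowest and the KO and day 1 libraries stayed apart. For H2BC21 and H2AC6 that separation was a condition for a place among the largest decreases. H2BC5 fell by 1.23 in every fit, and H2BC4 lost its call without replicate 1 (adjusted p = 0.0498, then 0.158). Most messages of this family lack a poly(A) tail, and the genes share sequence, so these levels cover only the tailed fraction and reads could be split among copies.

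Of 15 tested keratins 5 fell, 4 of them in every fit, and none rose. The shares over all genes were 5.97% lower and 2.01% lower in every fit. Without day 1 replicate 1, 5 keratins fell and 2 rose, and with the GC correction 6 fell and 1 rose. The list's median log2 differences from KO in day 1 replicates 1 to 3 were -0.31, -0.06 and -0.13. KRT13 read 73.7, 105.5 and 110.5 in KO and 20.1, 31.0 and 29.9 at day 1 (-1.80, adjusted p = 5.83e-05), beside 9.3 in WT. KRT4, its pairing partner, read 85.7, 90.6 and 91.6 and then 40.3, 43.1 and 45.9 (-1.04, adjusted p = 0.000494), beside 10.0. Both were nearer to WT at day 1 than in KO. KRT6A and KRT16, which have near-identical relatives, fell from low levels (-1.66 and -1.55). The fifth was the simple epithelial KRT18, described above (-0.21). KRT8, its pairing partner, read 56013.4, 57992.4 and 57631.2 and then 43615.1, 55191.0 and 55277.2 (-0.16, adjusted p = 0.24), a difference set mainly by replicate 1.

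Secretory and Notch genes leaned the same way, most so in day 1 replicate 1. Of 15 tested mucin and goblet cell genes 6 fell and 1 rose, beside 5.97% lower and 4.94% higher over all genes. Their median log2 differences from KO in day 1 replicates 1 to 3 were -0.52, -0.29 and -0.30. MUC6, a gel-forming mucin, read 462.4, 496.7 and 480.7 in KO and 232.7, 335.4 and 301.1 at day 1 (-0.74, adjusted p = 0.0127), beside 25.2 in WT, and TFF1, a trefoil peptide, 208.3, 187.1 and 228.9 and then 94.7, 134.2 and 135.6 (-0.79, adjusted p = 0.00056). Both passed in every fit. MUC20, a membrane mucin, rose by 0.49 and passed without replicate 1 (0.64). Of 18 tested Notch pathway genes 5 fell and none rose, beside 5.97% lower over all genes. Without replicate 1, 3 of them fell, beside 1306 of all 15134 genes. The Notch medians in replicates 1 to 3 were -0.54, -0.07 and -0.15. The ligand JAG1 read 4254.1, 4090.8 and 4291.6 and then 3377.6, 3493.6 and 3556.9 (-0.28, adjusted p = 0.000192), and the glycosyltransferase LFNG fell by 0.60. The receptor NOTCH1 read 588.9, 687.8 and 623.0 and then 345.5, 611.8 and 552.3 (-0.37, adjusted p = 0.358), so that replicate 1 alone was far below KO.

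**Figure D5:**
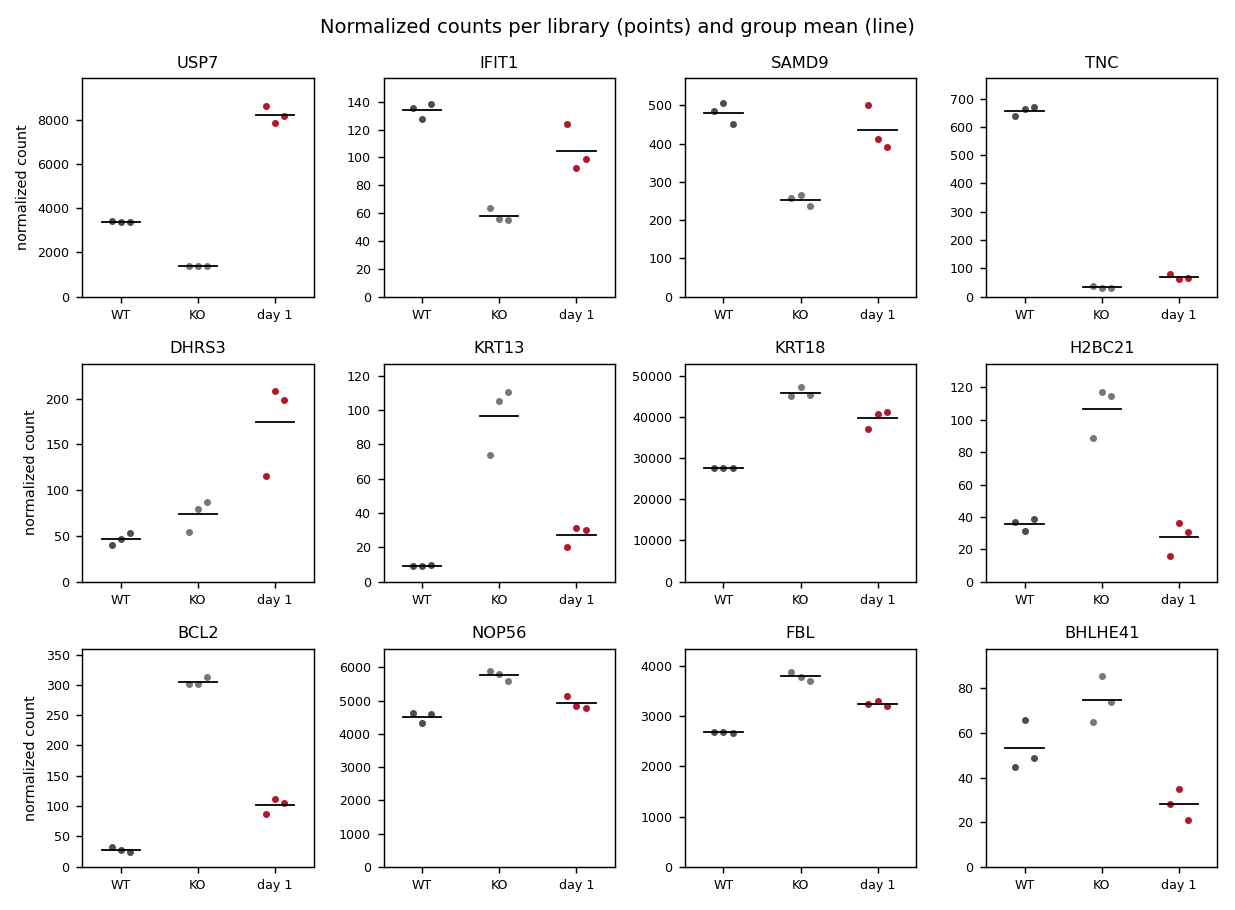
Normalized counts of 12 genes in each library of WT, knockout and day 1 (points; replicates 1 to 3 from left to right) with the group mean (line) and vertical axes from 0. USP7 at day 1 lies above WT. BCL2, KRT13 and H2BC21, from the largest decreases chosen for groups that do not overlap, lie below every knockout library at day 1.

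Small sets with opposite directions were found in 3 further lists. In the circadian list, the repressor BHLHE41 read 64.8, 85.6 and 73.7 in KO and 28.2, 35.0 and 20.9 at day 1 (-1.40, adjusted p = 0.000137) and BMAL2 fell by 0.36, while the clock transcription factors NR1D2, RORA and TEF rose by 0.32, 0.26 and 0.43. All 5 passed in every fit, of 18 tested, beside 3.48% in every fit over all genes. In retinoid metabolism DHRS3 rose, and CRABP2, which carries retinoic acid, fell from 879.9, 926.6 and 868.9 to 532.9, 621.8 and 619.1 (-0.60, adjusted p = 3.7e-05) with the retinol dehydrogenase RDH10 (-0.46). In glycolysis 4 of 25 fell and 2 rose, beside 5.97% lower and 4.94% higher over all genes. PFKFB3, which makes the activator fructose 2,6-bisphosphate, read 1126.1, 1261.1 and 1178.4 and then 638.7, 728.0 and 821.4 (-0.71, adjusted p = 3.81e-06). Hexokinase HK2 (-0.33) and lactate dehydrogenase LDHA (-0.27) fell as PKM rose. LDHA moved away from its WT mean of 15741.6, from 13334.7 in KO to 11096.3 at day 1. PKM moved toward its WT mean of 45734.9, from 35587.0 to 44304.8.

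The YAP and TEAD, actin and mesenchymal lists leaned higher, least so in day 1 replicate 1. Of 24 tested YAP and TEAD targets 6 rose and 1 fell, of 25 actin genes 6 rose and of 19 mesenchymal genes 4 rose, with none lower in the latter 2 lists. Over all genes 4.94% rose and 5.97% fell. Of the genes that rose, 2, 1 and 3 passed in every fit. Median log2 differences from KO in day 1 replicates 1 to 3 were 0.06, 0.13 and 0.11 for YAP and TEAD targets. They were -0.04, 0.13 and 0.13 for actin genes and 0.06, 0.27 and 0.21 for mesenchymal genes. Beside the mesenchymal list, the 3 fibroblast markers in the table (of 9 listed) summed to 60.8, 97.5 and 97.5 normalized counts in KO and 88.6, 130.2 and 125.6 at day 1. Of the 2 that could be tested, COL1A1 had a log2 change of -0.24 (adjusted p = 0.695) and PDGFRB rose by 0.63 (adjusted p = 0.0346) with overlapping groups. Their part in that result was not tested. TEAD1, the DNA-binding partner of YAP1, read 5127.1, 4930.8 and 5031.1 in KO and 6452.1, 5782.6 and 5798.9 at day 1 (0.26, adjusted p = 0.000613). ITGB6, the epithelial integrin subunit that activates latent TGF-beta, read 149.5, 136.4 and 145.3 and then 229.7, 233.3 and 218.3 (0.66, adjusted p = 5.81e-06). The gene that fell was TGFB2, a TGF-beta ligand, whose mean went from 56.1 ± 15.3 to 25.1 ± 6.6 (SD, n = 3 each; -1.13, adjusted p = 0.000608), moving away from its WT mean of 558.5. Of 25 tested Wnt targets and feedback genes 1 rose and 5 fell. The receptor LGR5 read 212.3, 212.0 and 244.8 and then 319.3, 298.4 and 320.0 (0.49, adjusted p = 6.63e-05), while ASCL2 (-0.47), CD44 (-0.33) and PROX1 (-0.38) fell. MYB, a transcription factor of intestinal progenitors, read 1351.3, 1238.2 and 1284.9 and then 910.6, 875.2 and 863.3 (-0.55, adjusted p = 4.73e-07), with no overlap and little spread.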

How the data were processed

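The 15 libraries were assigned to groups and replicate numbers by the sample titles. The submitters' processing notes name HISAT2 2.1.0, HTSeq, DESeq2 and build hg19. The deposited signal per gene is a normalized count, made by the authors by dividing counts by a size factor per library. The annotation and strand setting are not given in the sources. Of 22706 genes, 1 with a text cell was dropped.

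Values were taken as log2(value + 1). Genes that reached 10 in 3 or more libraries (15134) were fitted with limma 3.58.1 (statmod 1.5.0, R 4.3.3), 15 libraries with 1 mean per group and trend and robust options. Tests were two-sided at a Benjamini-Hochberg adjusted p of 0.05. The median standard error of a log2 change was 0.087. The fit was tested on simulated data.

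The members, the 51 gene lists and the tests were chosen with earlier results of these data known. Lists are described by counts and medians, without a test. Named genes are USP7; the 14 largest changes each way and the 5 of highest level each way among genes passing in every fit (the largest with a mean of 50 or more and groups apart); up to 4 genes of each list by lowest adjusted p; PRC1 members past the threshold; and 4 genes each way lost or gained without day 1 replicate 1. Other list members were named after their values were seen. Some genes that the rule names are not reported here.

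GC content is that of the longest GENCODE transcript. The GC correction removed a lowess fit (span 0.3) of each library's departure from the gene means. Promoters are from RefSeq (GRCh38.p14), found for 10789 tested genes. Tables and plots were made with pandas 2.3.3, matplotlib 3.10.9 and numpy 2.4.6 under Python 3.11.15.

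Same-numbered KO and day 1 libraries were not treated as pairs. Alternatives were another scaling, filters, pseudocounts, fewer libraries, each library left out, a replicate block, library weights and the GC correction.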

Additional observations from a re-analysis of the deposited data

Results flagged for a closer look

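The levels of the day 3 and day 9 libraries are not compared above, but they entered the residual spread, the gene filter and the GC correction. In these libraries 37 genes were above 0 in all 6 although they were listed at 0 in all 6 KO and day 1 libraries. They stood at a median of 21.3% of their WT mean (quartiles 20.9 and 22.7%). In 28 of the 37 the variance over the 6 libraries was under 0.25 of the mean, where independent counting would give about 1, and 7 of the same genes were that even in WT. ZNF680 read 67.3, 67.6 and 69.6 at day 3 and 69.7, 67.4 and 67.7 at day 9, and KLF8 read 11.9 in each of the 6. Another 7 of the 44 genes at 0 in KO and day 1 were at 0 in these 6 libraries too. The origin of this signal was not tested, and levels at day 3 and day 9 should be read with it in mind.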

How the results depend on the processing

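USP7 passed with the same direction under every alternative run, and all 1650 calls kept their sign in every fit with fewer libraries, with library weights and, for the 1647 with a GC value, with the GC correction. These fits reuse libraries of the main fit, so a change of sign was unlikely. Leaving out 1 library gave 958 to 2418 calls (449 to 1112 higher, 507 to 1306 lower), the lowest without KO replicate 2 and the highest without day 1 replicate 1. The 6 libraries alone gave 613 (247 higher, 366 lower) and library weights 3203 (1477 and 1726), with day 1 replicate 1 at a weight of 0.185. Alternatives added after the data were seen gave 3390 (1596 and 1794) for the 6 libraries without day 1 replicate 1, 3108 (1502 and 1606) with the GC correction, 3011 (1450 and 1561) with it and without that library, and 3068 (1473 and 1595) with it in the 6 libraries. Requiring a change of at least 1 log2 unit left 61 of the 526. Scaling to equal medians gave 1488 calls (738 higher), the 9 libraries of 1 project code 1305 and plain eBayes 1307; filters and pseudocounts gave 1445 to 1646. A replicate block gave 1969; same-numbered libraries deviated together with r of 0.189, 0.109 and 0.038 across genes, and day 1 replicate 3 was closest to KO replicate 2, so the numbers were not taken as a pairing. Among named genes and these alternatives, 2 uncalled ones reported here changed sign with 1 library left out: PCGF2 (-0.06 to 0.17) and VWF (-0.03 to 0.18). The cause of these differences was not tested. The planned count tests were not run, since the deposited values could not be accepted as whole reads. Depth limits low genes: IFIT3, at a KO level of 28.9 to 31.9, has a standard error of 0.15, and PKM 0.04.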

Other observations

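Ligands of the EGF receptor split at day 1. Epiregulin (EREG) read 4211.3, 3454.8 and 4062.7 normalized counts in KO and 3161.1, 2904.8 and 2941.8 at day 1 (log2 change -0.38, adjusted p = 0.000654 in limma) and amphiregulin (AREG) fell by 0.24 (adjusted p = 0.0135), while TGFA rose from 2362.7, 2383.8 and 2365.8 to 2854.8, 2663.5 and 2719.5 (0.21, adjusted p = 0.00236). The groups of EREG and TGFA did not overlap. EREG, AREG and TGFA all moved away from their WT means of 6816.7, 1464.7 and 1837.5. Of 28 genes of ERK feedback 3 rose and 6 fell, beside 4.94% higher and 5.97% lower over all genes. The immediate early gene EGR1 rose (0.31) as FOSL1 fell (-0.39). Of 21 tested cytosolic heat shock genes 3 fell, led by the HSP90 cochaperone FKBP4, from 3977.1, 3832.0 and 3558.1 to 3111.7, 2916.9 and 2976.7 (-0.33, adjusted p = 0.000109). Without day 1 replicate 1, 9 of the 21 fell and 1 rose, while of all 15134 genes 1306 fell and 1112 rose.

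Of 18 tight junction genes 4 rose and 1 fell, none in every fit, beside 4.94% higher and 5.97% lower over all genes. The scaffold TJP1 (0.22), cingulin CGN (0.22) and CLDN15 (0.38) were among those that rose, and the pore-forming claudin CLDN2 fell (-0.24). Of 27 tested HOX genes 4 rose and 1 fell, none in every fit, with log2 changes from 0.14 (HOXB9) to 0.22 (HOXB7) in those that rose and -0.25 in HOXB4. Of 47 E2F target genes 2 fell, beside 5.97% lower over all genes, of which E2F2 read 588.9, 622.1 and 563.3 in KO and 434.2, 434.6 and 414.7 at day 1 (-0.47, adjusted p = 2.27e-05). The count for that list moved with day 1 replicate 1: 13 fell and 1 rose without it, and 6 fell and 2 rose with the GC correction. Of all 15134 genes 1306 fell and 1112 rose without it, and with the correction 10.6% fell and 9.95% rose.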
